A study of Mus musculus with 6 samples.

Results

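The genes described here are 38 listed lysosomal membrane glycoproteins and solute or lipid transporters of the mouse. They were chosen by symbol, not by measured values, from 55421 genes in the deposited count table. Earlier results of these data were known by then. Each symbol matched an Ensembl gene, and 37 of the 38 were among the 13588 genes that passed the filter on low counts. Lysosomes are bounded by a membrane that is lined by heavily glycosylated proteins and crossed by transporters, which carry the products of digestion (amino acids, sugars, nucleosides, lipids, metals and vitamins) back to the cytosol. Many of these transporters run on the proton gradient across that membrane, and macrophages, which digest engulfed cells and microbes, are rich in lysosomes. TMEM175 is a channel of the same membrane that conducts potassium and protons.

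RNA was sequenced from primary mouse bone marrow-derived macrophages in 6 libraries. The Tmem175 knockout (KO) group held 3 wells of cells titled Tmem175flox/flox Lyz2-Cre+/- and given the genotype Tmem175-/- in a second label. In the first of these, floxed Tmem175 is deleted by Cre expressed from the Lyz2 gene, active in myeloid cells. The second label names no Cre, and the design text gives the genotype as the titles do. The wild type (WT) group held 3 wells of cells with neither floxed alleles nor Cre in their label. Loss of Tmem175, Cre itself, its insertion in Lyz2 and the background of the strain cannot be told apart between these groups, ages and animal numbers not being given in the sources used here. As the design text speaks of wells, each p-value reflects only the variation among wells, which could be technical.

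Library totals ran from 24179548 to 31542741 counts. Levels are given as CPM, counts scaled to the size of each library. Tmem175 stood at 14.3, 13.2 and 12.1 CPM in KO wells against 32.8, 33.4 and 33.2 CPM in WT wells, a fitted log2 change of -1.33 ± 0.07 (SE) with an adjusted p of 6.01e-05 in edgeR, and that of Lyz2 was -0.89 ± 0.08 (SE) with one of 0.00415. All 10 macrophage markers examined passed the filter, with a summed level of 17327 to 18018 CPM in KO wells and 17339 to 19030 CPM in WT wells. Principal component 1 held 29.3% of the variance and did not wholly separate the genotypes. Its scores were -2.62, 17.4 and 13.2 in KO wells and -19.9, -17.5 and 9.41 in WT wells. On it, WT replicate 3 lay nearer to KO replicates 2 and 3 than to the other WT wells. Principal component 2 held 20.6%, and its scores did not overlap. They were -15.1, -3.66 and -8.8 in KO wells and 4.89, -0.911 and 23.5 in WT wells.

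No change in any of the 37 tested members was detected at the threshold. In edgeR's quasi-likelihood test 0 of 37 members passed an adjusted p under 0.05, where 0.103% of all 13588 tested genes did (2 higher and 12 lower in KO wells), and DESeq2 and limma-voom also called 0 members. At an unadjusted p under 0.05, 2 of the 37 members stood out, Slc15a3 (lower) and Spns1 (higher), or 5.41%, against 5.44% of all tested genes. The groups did not overlap for 5 members, or 13.5%, against 10.8% of all tested genes, so neither share stood far from the background. The members' log2 fold changes, KO over WT, ran from -0.30 to 0.13, with 18 above and 19 below 0. Their median was -0.0018, beside -0.0009 over all tested genes.

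**Figure D1:**
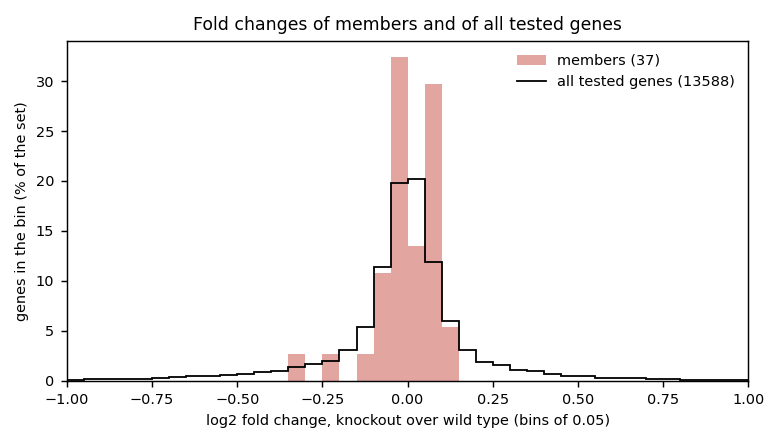
Distribution of log2 fold changes, KO over WT, in bins of 0.05, as a percentage of the 37 tested members (filled) and of all 13588 tested genes (line). The members lie between -0.30 and 0.13, around the same centre as all tested genes and without the tails.

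The members were abundant and measured more precisely than most genes. Their median level was 122 CPM, against 18.3 CPM over all tested genes. The median SE of the log2 fold change was 0.05 for members and 0.09 for all tested genes. Between wells, the median coefficient of variation of a member was 4.08% in KO wells and 4.29% in WT wells, against 6.95% and 6.94% over all tested genes. The 95% interval of the fold change, not adjusted for the number of genes, lay within 1.2-fold in either direction for 30 of the 37 members and within 1.5-fold for 36. Abcb9, at about 2 CPM, was the exception at 1.5-fold, with an interval from 0.564-fold to 1.17-fold. Intervals that passed 1.2-fold also belonged to Laptm4b (0.833-fold to 1.32-fold), Mfsd8 (0.779-fold to 1.22-fold) and Abcd4 (0.952-fold to 1.26-fold), all scarce. The same held for Mfsd12 (0.804-fold to 1.05-fold), Tmem63a (0.831-fold to 1.06-fold) and Slc15a3 (0.765-fold to 0.947-fold). Slc15a3 passed it with an estimate of 0.851-fold. Its log2 interval (-0.39 to -0.08) was narrower than that of Mfsd12 (-0.31 to 0.07).

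**Figure D2:**
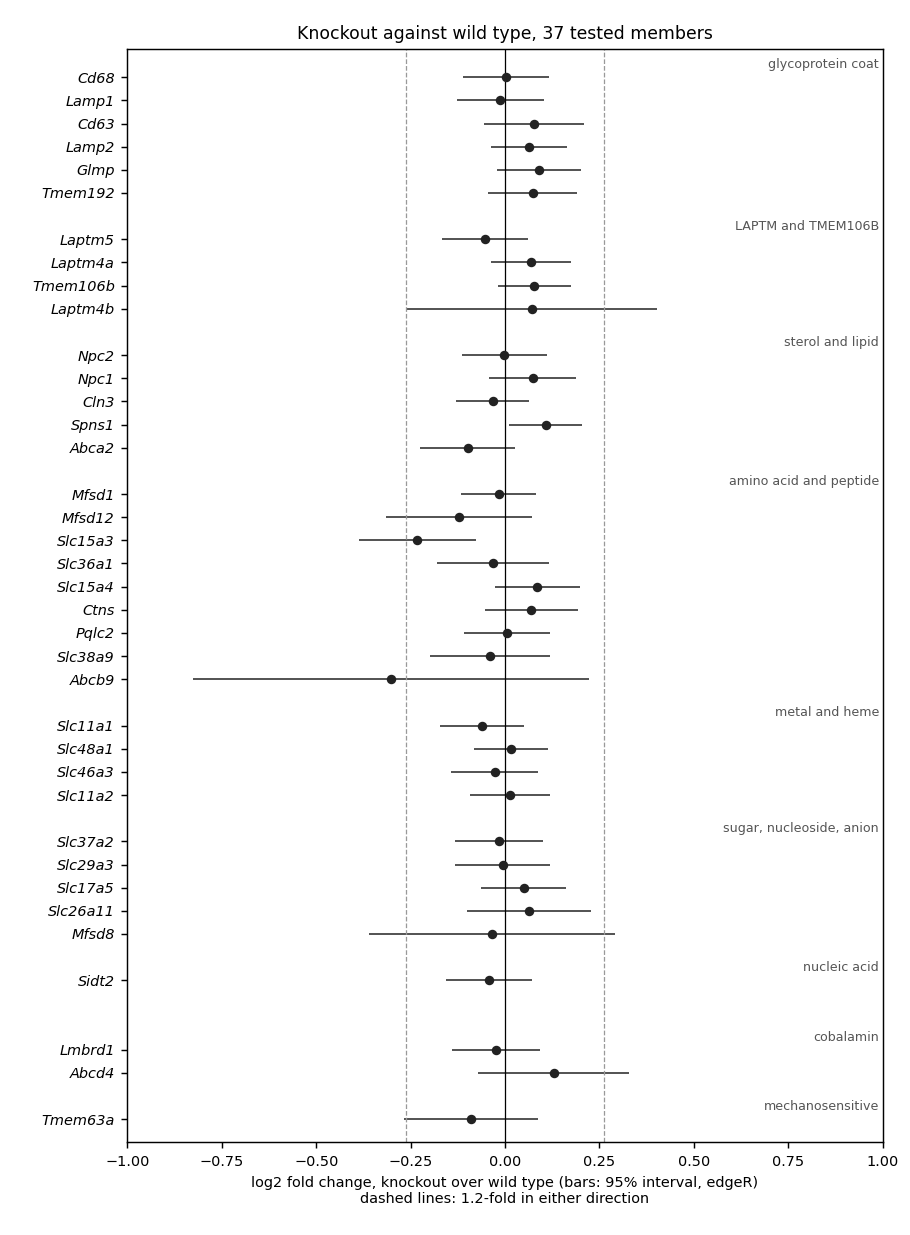
Log2 fold change of each tested member, KO over WT, with its 95% interval from edgeR, grouped by cargo class and ordered by level within a class. The intervals of Slc15a3 (-0.39 to -0.08) and Spns1 (0.01 to 0.20) leave out 0, before any adjustment for the number of genes tested. Dashed lines mark 1.2-fold in either direction.

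Levels between genes are given per length, as CPM per kilobase of merged exons. Among the tested members the mean level over all libraries ran from 0.394 CPM per kilobase for Abcb9 to 1075 for Cd68: 2 members lay above 1000 CPM per kilobase, 9 above 100, 29 above 10 and 35 above 1. All members together took 1.5% ± 0.0269 of all counts in KO wells and 1.46% ± 0.0137 in WT wells (SD, n = 3 each). These are shares of raw totals. In CPM, after TMM scaling, the members' sums overlapped, at 14298 to 15299 CPM in KO wells and 14776 to 14928 CPM in WT wells.

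**Figure D3:**
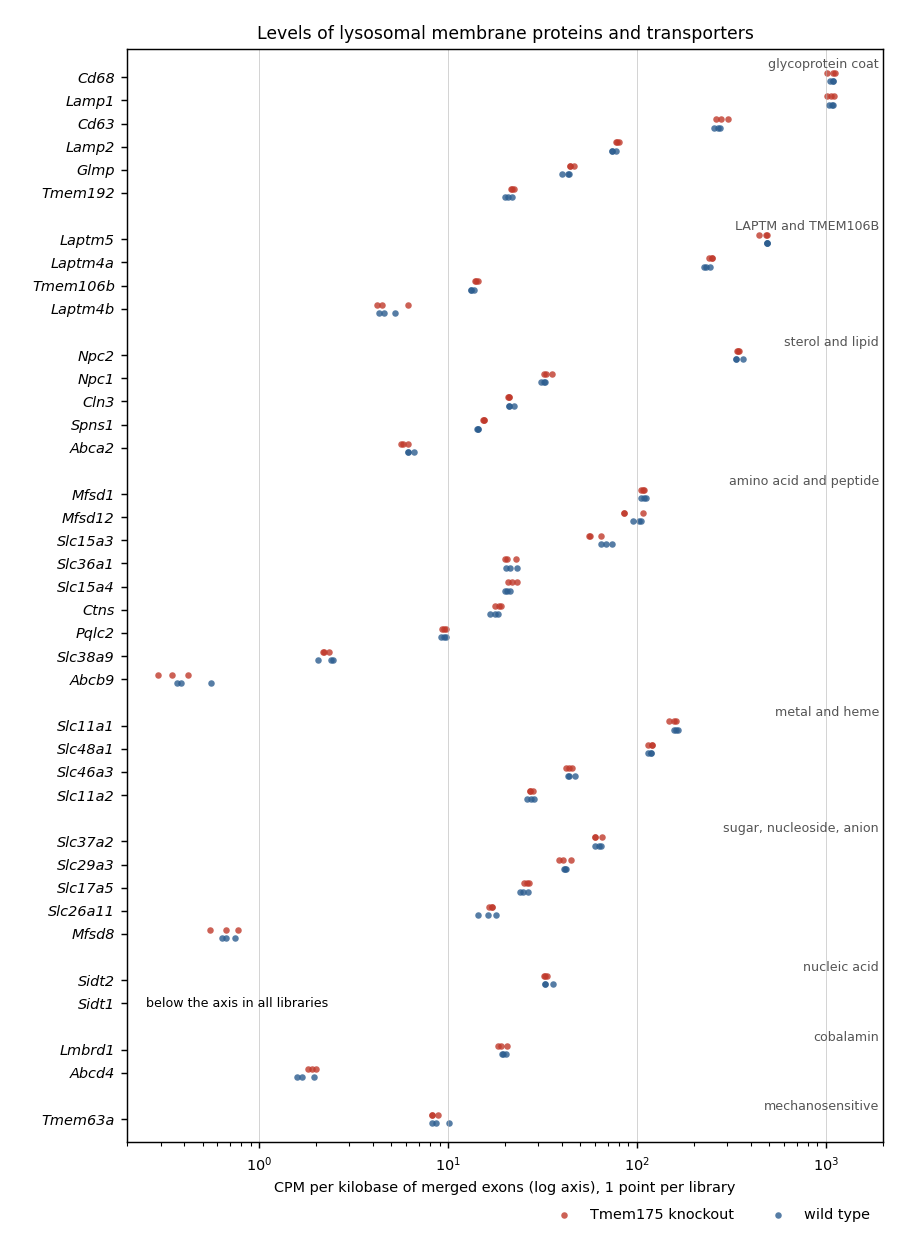
Level of each member in each library, as CPM per kilobase of merged exons on a log axis, knockout above wild type in each row, grouped by cargo class. Cd68 and Lamp1 stand near 1000 in all 6 libraries, and Sidt1, with a total of 3 counts over the KO wells and 2 over the WT wells, lies below the axis.

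Many lysosomal genes are bound near their start by TFEB and related factors, which recognise E-boxes with the core CACGTG, and the promoters of members that carry it are shown here as a sequence feature that the choice of genes did not use. RefSeq windows of GRCm38.p6, from 250 bases before to 50 after a start, were matched to 31 of the 38 members, in 34 windows. The core CACGTG, which reads the same on either strand, was in 4 of these 34 windows (11.8%), against 7.15% of all 32851 windows and 9.86% of the 12633 windows of tested genes. The longer form TCACGTGA, which contains the core, was in 3 of the 34 (8.82%), against 0.974% of all windows and 1.84% of those of tested genes. The 4 members were Lamp1, Cln3, Mfsd1 and Slc36a1, and all but Lamp1 held the longer form. A match here is a description of the letters, not a site of binding, and its absence from the other windows says only that the letters are not there. The stretches below hold, for each gene, the core nearest to its RefSeq start, in capitals, with 15 bases to either side. They lie on the plus strand at chr8:13159131-13159166 for Lamp1, chr3:67582735-67582770 for Mfsd1 and chr11:55204322-55204357 for Slc36a1, and on the minus strand at chr7:126583337-126583372 for Cln3.
Lamp1: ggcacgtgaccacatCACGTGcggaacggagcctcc
Mfsd1: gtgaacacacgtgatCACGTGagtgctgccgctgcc
Slc36a1: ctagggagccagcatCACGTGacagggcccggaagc
Cln3: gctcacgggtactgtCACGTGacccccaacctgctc

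The windows of Mfsd1, Lamp1, Cln3 and Slc36a1 held 5, 4, 2 and 2 cores. The printed one began 15 bases upstream of the RefSeq start in Lamp1, 18 in Mfsd1, 3 in Slc36a1 and 121 in Cln3. In the GENCODE M21 annotation, used here for gene positions, the outermost start was 67582741 for Mfsd1 and, on the minus strand, 126585817 for Cln3. By that annotation the printed cores of Mfsd1 and Cln3 lay within the gene. In knockout against wild type cells these 4 genes had log2 fold changes of -0.0122 ± 0.05 (SE) for Lamp1, -0.02 ± 0.04 (SE) for Mfsd1, -0.03 ± 0.07 (SE) for Slc36a1 and -0.03 ± 0.04 (SE) for Cln3, none of them called.

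The glycoproteins and their partners were the most abundant class, with a summed level of 2562 ± 113 CPM per kilobase in KO wells and 2548 ± 36.7 in WT wells (SD, n = 3 each). Cd68 (GRCm38 chromosome 11, 69664213 to 69666153), macrosialin, the LAMP family member typical of macrophages, stood at 1120.0, 1018.5 and 1088.3 CPM per kilobase in KO wells against 1085.2, 1088.0 and 1048.1 in WT wells. Lamp1 (chromosome 8, 13159161 to 13175338), one of the main glycoproteins that coat the lumenal face of the membrane, stood at 1102.7, 1016.2 and 1059.9 CPM per kilobase in KO wells against 1095.7, 1033.8 and 1076.4 in WT wells. In both genes KO replicate 2 was the lowest library and KO replicate 1 the highest, and the groups overlapped. The log2 fold changes were 0.0024 for Cd68, with a 95% interval of -0.11 to 0.12, and -0.0122 for Lamp1, with one of -0.13 to 0.10.

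Lamp2, the paralogue of Lamp1, which also yields the receptor of chaperone-mediated autophagy, was lower per length. It stood at 76.9, 78.6 and 79.9 CPM per kilobase in KO wells against 73.9, 73.7 and 77.7 in WT wells, and KO replicate 1 overlapped with WT replicate 3. Lamp1 exceeded Lamp2 by 13.5-fold ± 0.737 in KO wells and 14.2-fold ± 0.526 in WT wells (SD, n = 3 each). That ratio depends on the length used: with the longest transcript of each gene it was 6.12 in KO wells and 6.45 in WT wells, and Lamp1 then stood above Cd68. Cd63, a tetraspanin of late endosomes, had a level of 282 ± 19.6 CPM per kilobase in KO wells and 267 ± 9.51 in WT wells (SD, n = 3 each).

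Glmp, the glycosylated partner that shields the transporter MFSD1 from digestion, was 1 of the 5 members whose groups did not overlap. It stood at 278.2, 278.5 and 292.4 CPM in KO wells against 251.7, 272.2 and 273.9 CPM in WT wells. The gap between the groups, from KO replicate 1 to WT replicate 3, was small beside the spread among the WT wells. Its log2 fold change was 0.09 ± 0.05 (SE), with an adjusted p of 0.95 in edgeR. Tmem192, a membrane protein widely used as a handle to purify lysosomes, had a log2 fold change of 0.07 ± 0.05 (SE).

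The next class held the LAPTM proteins, membrane proteins of endosomes and lysosomes that help to sort receptors and lipids, and Tmem106b. Laptm5, the haematopoietic member, was the most abundant, at 485.0, 442.7 and 481.6 CPM per kilobase in KO wells against 486.5, 487.6 and 488.9 in WT wells. All 3 KO values lay below all WT values, though KO replicate 1 did so by less than the range of the WT wells. Its log2 fold change was -0.05 (95% interval -0.17 to 0.06, adjusted p = 0.971, edgeR). Laptm4a stood at 239.1, 248.5 and 249.9 CPM per kilobase in KO wells against 227.6, 230.9 and 244.7 in WT wells. Its paralogue Laptm4b was scarce, at 6.09, 4.48 and 4.18 CPM per kilobase in KO wells against 5.21, 4.58 and 4.31 in WT wells. Laptm4a exceeded Laptm4b by 51.5-fold ± 10.8 in KO wells and 50.3-fold ± 6.57 in WT wells (SD, n = 3 each).

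Tmem106b, a lysosomal membrane protein whose lumenal fragment forms fibrils in aged human brain, had non-overlapping groups, at 97.6, 95.5 and 100.2 CPM in KO wells against 94.8, 91.3 and 91.9 CPM in WT wells. KO replicate 2 and WT replicate 1 lay close together. The log2 fold change was 0.08 ± 0.04 (SE), with an adjusted p of 0.95 in edgeR.

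Among the genes for sterols and lipids, the pair that exports cholesterol led. NPC2 binds cholesterol in the lumen and hands it to NPC1 in the membrane. Npc2 stood at 346.7, 340.1 and 343.3 CPM per kilobase in KO wells against 333.8, 334.4 and 363.2 in WT wells, with a log2 fold change of -0.0018 (95% interval -0.11 to 0.11). Npc1 averaged 33.6 ± 1.76 CPM per kilobase in KO wells and 31.9 ± 0.940 in WT wells (SD, n = 3 each), and the ratio of Npc2 to Npc1 was 10.2 ± 0.465 in KO wells and 10.8 ± 0.849 in WT wells. With the longest transcript of each gene that ratio averaged 8.59 in KO wells and 9.05 in WT wells.

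Spns1 (chromosome 7, 126370060 to 126377450), which exports lysophospholipids, had the smallest p of the members after Slc15a3. It stood at 56.7, 57.5 and 57.7 CPM in KO wells against 53.6, 52.8 and 53.1 CPM in WT wells. The groups did not overlap, and the wells of each group lay within 1 CPM of each other. The difference was small: the log2 fold change was 0.11 (SE 0.04, 95% interval 0.01 to 0.20), or 1.08-fold, with an adjusted p of 0.908 in edgeR's test.

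Abca2, an ABC transporter linked to sterol trafficking, stood at 51.3, 46.9 and 47.9 CPM in KO wells against 54.8, 50.9 and 50.8 CPM in WT wells, where KO replicate 1 overlapped with the WT wells. Its log2 fold change was -0.10 ± 0.06 (SE), with an adjusted p of 0.95 in edgeR. Cln3, whose loss causes juvenile Batten disease in humans and blocks clearance of glycerophosphodiesters, averaged 121 ± 0.456 CPM in KO wells and 124 ± 4.10 CPM in WT wells (SD, n = 3 each). Its exons share 442 bases with Apobr on the opposite strand, which had a median of 2517 counts against 3197 for Cln3.

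**Figure D4:**
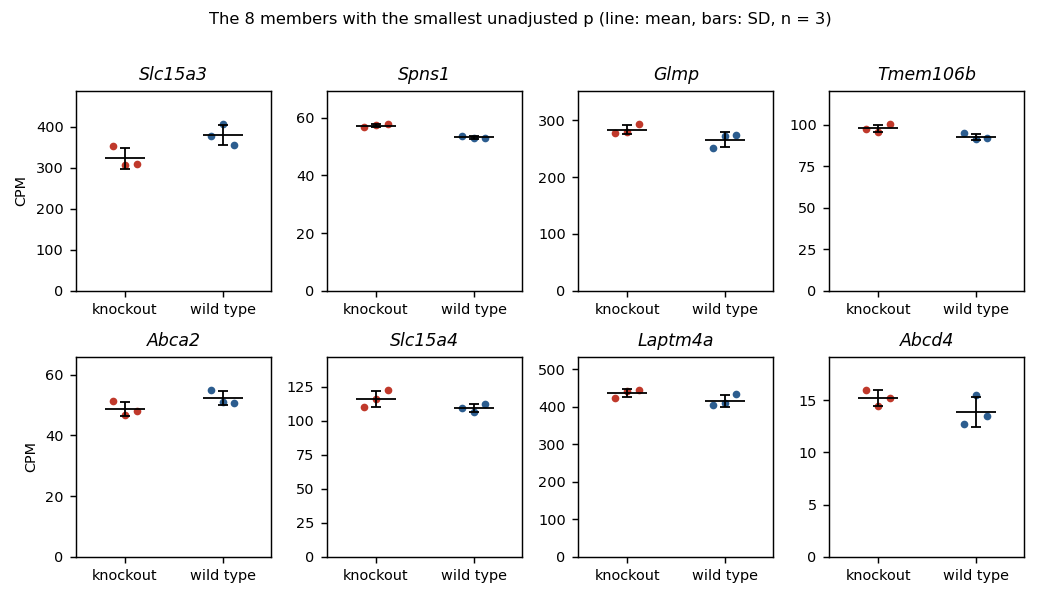
CPM in each library for the 8 members with the smallest unadjusted p, knockout left of wild type, with the mean (line) and SD (bars, n = 3). Axes start at 0: the wells lie close together, and Slc15a3, from 306 to 353 CPM in KO wells and 355 to 405 CPM in WT wells, has the largest log2 fold change of the 8, -0.23.

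The largest class carried amino acids and peptides, and 6 of its 9 members had a negative and 3 a positive log2 fold change, with none called. Slc15a3 (chromosome 19, 10839727 to 10859362), which carries histidine and small peptides out of endolysosomes together with protons, had the smallest p of all members. It stood at 352.9, 306.3 and 309.7 CPM in KO wells against 377.8, 405.2 and 355.1 CPM in WT wells. All KO values lay below all WT values, but KO replicate 1 and WT replicate 3 were nearly equal. The log2 fold change was -0.23 (SE 0.07, 95% interval -0.39 to -0.08), or 0.851-fold, with an adjusted p of 0.734 in edgeR's test.

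The call on Slc15a3 depended on the filter: without a filter on low counts its adjusted p was 0.0363 (edgeR), the 1 member called under any alternative. Without 1 library at a time, its log2 fold change ran from -0.30 to -0.18, with adjusted p-values from 0.157 to 1 (edgeR). Its exons share 1541 bases with Tmem132a on the opposite strand, which had a median of 1219 counts against 9126 for Slc15a3 and a log2 fold change of -0.25 ± 0.08 (SE), with an adjusted p of 0.775 in edgeR. Markers of dendritic cells, 12 of 12 of which passed the filter, summed to 942, 604 and 752 CPM in KO wells against 981, 975 and 1023 CPM in WT wells. Most of each sum was H2-Ab1, at 638, 426 and 534 CPM in KO wells against 656, 673 and 776 CPM in WT wells. Flt3, Zbtb46, Xcr1, Clec9a and Cd209a each had a mean of at most 2.64 CPM in either group, so the sum says little of them. Of the 12 markers, 2 had a positive and 10 a negative log2 fold change, and none was at 0 in all libraries. At an unadjusted p under 0.05 in edgeR stood 5 of the 12, against 5.44% of all tested genes. EdgeR called 0 of them, DESeq2 1 and limma-voom 0, and their part in the level of Slc15a3 was not tested. In such bulk samples, fewer cells of a type and less RNA per cell cannot be told apart.

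Slc15a4, the paralogue with the same cargo, which also anchors the adaptor TASL in signalling from endosomal Toll-like receptors, stood at 110.2, 115.6 and 122.3 CPM in KO wells against 109.3, 106.5 and 112.3 CPM in WT wells. Its groups overlapped, and its log2 fold change was 0.08 ± 0.05 (SE), with an adjusted p of 0.961 in edgeR, opposite in sign to that of Slc15a3. Per length, Slc15a3 exceeded Slc15a4 by 3.10, 2.56 and 2.45-fold in KO wells and by 3.35, 3.68 and 3.06-fold in WT wells, so that KO replicate 1 and WT replicate 3 overlapped. With the longest transcript of each gene the mean ratio was 1.69 in KO wells and 2.10 in WT wells. The ratio was chosen with these data known and was not tested.

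Mfsd1, a dipeptide transporter, was the most abundant gene of the class, at 109.1, 104.7 and 108.2 CPM per kilobase in KO wells against 105.5, 111.9 and 108.4 in WT wells. KO replicate 2 was the lowest and WT replicate 2 the highest library, the other wells lay between them, and the log2 fold change was -0.02 (95% interval -0.12 to 0.08). The ratio of Mfsd1 to its partner Glmp was 2.39 ± 0.0722 in KO wells and 2.57 ± 0.0753 in WT wells (SD, n = 3 each). With the longest transcript of each gene its mean was 1.71 in KO wells and 1.84 in WT wells. Slc38a9, the arginine sensor that signals to mTORC1, was among the low members, at 2.23 ± 0.0805 CPM per kilobase in KO wells and 2.30 ± 0.212 in WT wells. Of the remaining members, Slc36a1 (proton-coupled export of small amino acids), Pqlc2 (cationic amino acids), Ctns (cystine export, lost in cystinosis) and Mfsd12 (cysteine import) had log2 fold changes from -0.12 for Mfsd12 to 0.07 for Ctns. Abcb9, which pumps peptides into the lysosome, had one of -0.30 ± 0.23 (SE) at 1.97 CPM in KO wells and 2.44 CPM in WT wells.

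The genes for metals and heme had log2 fold changes from -0.06 to 0.02, the narrowest range of the classes with more than 2 tested members. Slc11a1, known as Nramp1, which pumps divalent metals out of the phagosomes of macrophages and so withholds them from microbes, stood at 160.6, 147.0 and 156.2 CPM per kilobase in KO wells against 157.6, 165.8 and 160.3 in WT wells. Its groups overlapped, and its log2 fold change was -0.06 (95% interval -0.17 to 0.05). Slc11a2, the ubiquitous iron carrier DMT1, stood at 27.2, 28.2 and 27.0 CPM per kilobase in KO wells against 26.0, 27.4 and 28.3 in WT wells. Slc11a1 exceeded it by 5.63-fold ± 0.373 in KO wells and 5.93-fold ± 0.225 in WT wells (SD, n = 3 each). Slc48a1, which exports heme from lysosomes that digest red cells, averaged 118 ± 3.09 CPM per kilobase in KO wells and 117 ± 2.63 in WT wells. Slc46a3, known for carrying the breakdown products of antibody-drug conjugates, had a log2 fold change of -0.03 ± 0.05 (SE).

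Among the carriers of sugars, nucleosides and anions, Slc37a2, a sugar-phosphate exchanger abundant in macrophages, led at 64.9, 59.8 and 60.0 CPM per kilobase in KO wells against 64.6, 62.6 and 59.7 in WT wells. The groups covered nearly the same range, and its log2 fold change was -0.02 (95% interval -0.13 to 0.10). Slc29a3 (nucleoside export), Slc17a5 (sialic acid export) and Slc26a11 (sulfate) had log2 fold changes of -0.0065, 0.05 and 0.06. Mfsd8, also known as CLN7, a chloride channel whose loss causes a form of Batten disease in humans, was the lowest tested member but for Abcb9, at 0.664 ± 0.113 CPM per kilobase in KO wells and 0.681 ± 0.0552 in WT wells (SD, n = 3 each).

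For nucleic acids, Sidt2, which takes RNA and DNA into lysosomes for digestion, stood at 33.5, 32.1 and 32.7 CPM per kilobase in KO wells against 32.7, 32.6 and 35.9 in WT wells, and its groups overlapped. Its paralogue Sidt1 had 1, 2 and 0 counts in KO wells and 0, 1 and 1 counts in WT wells, which does not exceed the limit of 3 counts per library, or 0.0952 to 0.125 CPM. It was not detectable above that limit at this depth, and no fold change is given for it. For cobalamin, Lmbrd1 stood at 20.6, 18.3 and 19.1 CPM per kilobase in KO wells against 19.5, 20.1 and 19.3 in WT wells. Its partner Abcd4, with which it exports the vitamin, stood at 15.9, 14.4 and 15.2 CPM in KO wells against 12.7, 15.5 and 13.5 CPM in WT wells, with overlapping groups and a log2 fold change of 0.13 ± 0.09 (SE), with an adjusted p of 0.968 in edgeR. Lmbrd1 exceeded Abcd4 per length by 10.2-fold ± 0.160 in KO wells and 11.4-fold ± 0.954 in WT wells (SD, n = 3 each). With the longest transcript of each gene the mean ratio was only 5.36 in KO wells and 6.00 in WT wells. Tmem63a, a mechanosensitive cation channel, stood at 8.17, 8.23 and 8.86 CPM per kilobase in KO wells against 8.16, 8.63 and 10.1 in WT wells.

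Further genes, listed as lysosomal membrane proteins or transporters, were taken from a pair of lists that hold none of the 38 members. Where in the cell their products lie was not measured, and not all need be chiefly lysosomal. Of 26 listed further membrane proteins, 25 were tested and edgeR called 0 in either direction, with 3 at an unadjusted p under 0.05 and a median log2 fold change of -0.0074; DESeq2 called 1 and limma-voom 0. Of 38 listed further transporters, 35 were tested and edgeR called 0, with 2 at an unadjusted p under 0.05 and a median of -0.0099. DESeq2 and limma-voom called 0 of these. Of all tested genes, 5.44% had an unadjusted p under 0.05 in edgeR. Hgsnat, the membrane enzyme that acetylates heparan sulfate for its breakdown, had the smallest p of the first list, at 113.3, 94.7 and 114.8 CPM in KO wells against 148.6, 127.5 and 155.2 CPM in WT wells. Its groups did not overlap, and its log2 fold change was -0.42 ± 0.09 (SE), with an adjusted p of 0.344 in edgeR. Hgsnat was the gene that DESeq2 called (adjusted p = 0.00212), and without a filter on low counts edgeR called it as well (adjusted p = 3.73e-06). Mfsd2b, a sphingosine-1-phosphate exporter of red cells and platelets, had the smallest p of the second list, at 5.14, 4.16 and 5.14 CPM in KO wells against 9.35, 6.74 and 5.80 CPM in WT wells. Its groups did not overlap, and its log2 fold change was -0.60 ± 0.18 (SE), with an adjusted p of 0.775 in edgeR, and without a filter its adjusted p was 0.028 (edgeR). Beside it, erythroid and megakaryocyte markers, of which 6 of 10 passed the filter and Hbb-bs was at 0 in all libraries, summed to 152, 102 and 133 CPM in KO wells against 210, 192 and 127 CPM in WT wells. The log2 fold changes of all 6 tested were below 0 (median -0.52), and 4 had an unadjusted p under 0.05, while edgeR, DESeq2 and limma-voom called 0. Their part in the level of Mfsd2b was not tested. Tmem9b, Gpr137b, Slc17a9 and Abcc10 had log2 fold changes of 0.11, 0.19, 0.34 and 0.16, with adjusted p-values from 0.908 to 0.94 (edgeR).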

How the data were processed

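The authors deposited raw counts per Ensembl gene, for which the submitters' processing notes name HISAT2, featureCounts and GRCm38. Versions, annotation release and strand setting were not given in the sources used here. Where a gene overlaps one on the other strand, as found at 16 members, their reads may not have been separated. Symbols, positions and exon lengths came from GENCODE M21 on the same build, which matched 55240 of 55421 IDs. After TMM scaling and a filter by filterByExpr, genotype was tested with edgeR 4.0.16 (R 4.3.3; quasi-likelihood, two-sided, genotype as the only term), with Benjamini-Hochberg adjustment over 13588 genes and a threshold of 0.05. SEs were derived from the F statistic, and 95% intervals from the same fit. No pair of wells within a group agreed within sampling noise (chi-square over its degrees of freedom 3.90 to 20.0). The test was tried on a single simulated data set, where it recovered large changes more often than small ones. The share of false calls among its calls there was above the threshold. A single draw does not give the rate over repeated draws.

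The members and lists were chosen with earlier results of these data known, and the E-box search was added after the data had been seen. Values in every library are given for the 8 members with the smallest p, the most abundant member of each class and paralogue pairs. Of the further lists, the 3 genes with the smallest p are named, with values in every library for the first of each. Other values were chosen after they had been seen. Alternatives were 3 other scalings (upper quartile, library totals, size factors of DESeq2), the test of DESeq2 1.42.0, limma-voom (limma 3.58.1), no filter, a mean of at least 10 CPM, the replicate number as a block, leaving out each library, and transcript length. Markers of neutrophils, mast cells, lymphocytes and stromal cells were also summed. Precision is limited by counting error and the 3 wells per group.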

Additional observations from a re-analysis of the deposited data

How the results depend on the processing

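The count of members called was 0 under every alternative except no filter on low counts, where it was 1 (Slc15a3). Over all genes, 14 were called, against 151 without a filter, 40 with the DESeq2 test, 5 when a mean level of 10 CPM was required, and 4 to 12 without 1 library (12, 5 and 4 without KO replicates 1, 2 and 3, and 7, 6 and 9 without WT replicates 1, 2 and 3). Leaving out a library leaves fewer samples, and for the other settings the cause was not tested. The members' median log2 fold change was -0.0018, against 0.0419 with library totals, where the median of all tested genes was 0.0424, and -0.0256 (without KO replicate 1) to 0.0151 (without KO replicate 2) without 1 library. The members' median level was 26.5 CPM per kilobase of merged exons and 38.9 with the longest transcript, since merged exons are at least as long as any transcript. For 21 members with values in every library, 292 of 293 alternative log2 fold changes stayed on the same side of the threshold, and 26 had the opposite sign, none of them called.

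Same-numbered wells did not deviate together (correlations 0.057, -0.123 and 0.0388 over 13588 genes), so the numbers are not taken as pairs. With the replicate block, 17 genes and 0 members were called, and Hgsnat had an adjusted p of 0.0114 (edgeR). Counts of Sidt1, Abcb9 and Mfsd8 are too low to limit a change closely.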

Other observations

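Mfsd12, the cysteine importer, chosen after its values were seen, stood at 424.8, 340.7 and 336.8 CPM in KO wells and 414.7, 404.8 and 380.1 CPM in WT wells, a coefficient of variation of 13.5% in KO wells and 4.45% in WT wells. Its highest libraries were KO replicate 1 and WT replicates 1 and 2, which also had the lowest scores on principal component 1. Among the tested members, Cln3 had the lowest coefficient of variation in KO wells, 0.377%, against 3.31% in WT wells. Laptm5 had the lowest in WT wells, 0.243%, against 5.0% in KO wells. Both are the lowest of 37 values from 3 wells each, and whether these genes vary less than others was not tested. Neutrophil markers summed to 937, 856 and 928 CPM in KO wells and 667, 520 and 750 CPM in WT wells, and 11 of 14 tested had a positive log2 fold change. At an unadjusted p under 0.05 in edgeR stood 8, against 5.44% of all tested genes. Mpo, among those 8, was lower in KO wells (log2 fold change -0.76). Of the 14, edgeR called 0, DESeq2 4 and limma-voom 1. Mast cell and basophil markers summed to 32.3 to 52.7 CPM in KO wells and 45.3 to 60.8 CPM in WT wells, lymphocyte markers to 81.2 to 113 CPM in KO wells and 110 to 169 CPM in WT wells, and fibroblast and stromal markers to 26.0 to 52.2 CPM in KO wells and 17.3 to 71.3 CPM in WT wells. None of these lists held a gene called by edgeR, DESeq2 or limma-voom except the neutrophil list, and at an unadjusted p under 0.05 in edgeR stood 5 of 8 tested mast cell, 4 of 6 lymphocyte and 0 of 7 fibroblast markers.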
